A study of Mus musculus with 4 samples.

Results

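The 10 genes described here are used to recognise tissue macrophages: C1qa, C1qb, C1qc, Apoe, Trem2, Mrc1, Cd163, Folr2, Lyve1 and Pf4. They were chosen by name, and they are 10 of the 27998 genes shared by 4 single-cell RNA libraries of the mouse mammary gland. They were followed in barcodes (the droplet tags that stand for cells) with at least 3 molecules (UMIs) of Tyrobp, at least 1 of Lyz2 and 0 of Epcam, called the macrophage gate below. Tyrobp and Lyz2 are myeloid genes and Epcam is an epithelial gene, so none of the 10 genes set the gate. The gate held 525 of 4836 barcodes (10.9%) at 5 months, 1890 of 2712 (69.7%) in tumour 1 and 541 of 1780 (30.4%) in tumour 2.

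All 4 libraries, labelled Trp53/Brca1-null, came from female Trp53L/L;Brca1L/L;R26Y mice of mixed genetic background, in which floxed Trp53 and Brca1 are deleted and a Rosa26 YFP reporter is switched on by Cre. Cre came from an adenovirus, Ad-K8-Cre, injected into the milk ducts, with a keratin 8 promoter that restricts it to luminal cells. Macrophages are therefore not the cells in which the alleles were meant to recombine, and no library holds mice without the alleles or the virus. The 2 weeks library held sorted YFP+ epithelial cells and only 2 gated barcodes. The 5 months library held sorted YFP+ epithelial cells together with CD45+ leukocytes, and tumour 1 and tumour 2 held live DAPI- cells of the tumour mass. The sorts differ, so the share of gated barcodes cannot be told apart from how the cells were collected. The labels do not give the number of mice behind a library, the age of the mice, or the ratio of YFP+ to CD45+ cells.

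Macrophages that live in a tissue clear dead cells, lipids and debris, and they make proteins that few other leukocytes make. C1q, the recognition molecule of the classical complement pathway, is assembled from the A, B and C chains encoded by C1qa, C1qb and C1qc, and macrophages are a main source of it. Apolipoprotein E carries lipids out of loaded macrophages, and TREM2 is a lipid-sensing receptor that signals through the adaptor encoded by Tyrobp. Mrc1 (the mannose receptor), Cd163 (the haemoglobin-haptoglobin scavenger receptor), Folr2 (folate receptor beta) and Lyve1 (a hyaluronan receptor) are used to mark resident and perivascular macrophages, and Pf4 is a chemokine of platelets and some macrophages. In the mammary gland, LYVE1+ macrophages are known from the stroma and other macrophages from the ductal epithelium.

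In the GENCODE annotation of GRCm38, the build that the submitters' processing notes name, the 3 C1q genes stand side by side on the minus strand of chromosome 4: C1qb at 136880129 to 136886187, C1qc at 136889804 to 136893065 and C1qa at 136895917 to 136898803. Apoe, Folr2 and Lyve1 lie apart on chromosome 7, Trem2 on 17, Mrc1 on 2, Cd163 on 6 and Pf4 on 5. RefSeq promoters (GRCm38.p6) were matched by symbol for 8 of the 10 genes. The 250 bases before the annotated start are printed for 4 of these genes. The core of the PU.1 motif, GAGGAA, or its reverse complement TTCCTC, is in capitals. PU.1 is a transcription factor that myeloid cells need.
C1qb (chr4:136886201-136886450, minus strand): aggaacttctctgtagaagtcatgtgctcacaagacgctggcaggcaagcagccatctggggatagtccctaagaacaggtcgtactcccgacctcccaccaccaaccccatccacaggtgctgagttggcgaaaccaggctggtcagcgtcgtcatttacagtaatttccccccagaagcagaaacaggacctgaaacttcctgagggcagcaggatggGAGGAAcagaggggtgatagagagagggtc
Apoe (chr7:19699189-19699438, minus strand): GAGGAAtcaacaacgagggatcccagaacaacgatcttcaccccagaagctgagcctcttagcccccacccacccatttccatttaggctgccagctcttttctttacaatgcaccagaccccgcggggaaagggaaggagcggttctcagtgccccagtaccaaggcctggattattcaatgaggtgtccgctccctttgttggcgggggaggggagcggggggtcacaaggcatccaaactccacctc
Trem2 (chr17:48346151-48346400, plus strand): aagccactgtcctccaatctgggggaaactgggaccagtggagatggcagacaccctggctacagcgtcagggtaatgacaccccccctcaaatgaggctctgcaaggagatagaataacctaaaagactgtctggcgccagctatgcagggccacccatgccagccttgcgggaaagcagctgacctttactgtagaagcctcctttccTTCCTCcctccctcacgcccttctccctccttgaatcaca
Pf4 (chr5:90772185-90772434, plus strand): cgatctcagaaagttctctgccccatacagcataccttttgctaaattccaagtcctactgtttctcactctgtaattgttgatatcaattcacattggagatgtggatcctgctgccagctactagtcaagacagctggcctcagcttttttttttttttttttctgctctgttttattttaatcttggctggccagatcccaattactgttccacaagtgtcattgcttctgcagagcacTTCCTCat
The PU.1 core stood on either strand in 7 of the 11 promoters of these genes, and in 23.3% of 32851 mouse promoters of the same length. Counted by gene, 6 of 8 held it in at least 1 promoter, beside 25.9% of 27025 genes. The 7 include the windows of C1qc, which overlaps a first exon in GENCODE, and of Mrc1, which runs past the start of the gene there, and neither is printed. Cd163 and Folr2 were the 2 without it. A half-site of MAF factors (TGCTGAC) was found in none of the 8 genes and in 3.81% of all promoters, and the E-box CACGTG in none of the 8 and in 6.02% of all. Apoe has 3 annotated starts and Folr2 has 2. These matches describe letters in a window and were not tied to a measurement.

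The gate was checked against macrophage genes that were not used to set it. Of the 9 core macrophage genes measured (Csf1r, Adgre1 and Fcgr1 among them), 6 were found in at least 10% of gated barcodes at 5 months, 9 in tumour 1 and 8 in tumour 2. Their shares at 5 months ran from 0.571% (Mertk) to 74.5% (Cd14), with Csf1r at 47.8%. The same 10% was reached at 5 months by all 5 measured T cell genes and 5 of 8 monocyte genes. In tumour 2 it was reached by 6 of 6 neutrophil and 6 of 8 monocyte genes. The count alone therefore does not show that gated barcodes are macrophages. Genes of other cells were read in the gate too, and differently in each library. At least 1 of 9 dendritic cell genes was found in 46.7% of gated barcodes at 5 months, 4.23% in tumour 1 and 8.69% in tumour 2. The one found most at 5 months was Ccr7, in 28.4% of gated barcodes, and T cells also use it: it was found in 52.4% of the Cd3e barcodes described below. Flt3 and Cd209a were found in 9.33% and 9.90% of gated barcodes at 5 months, and in 0.699% and 0.854% of Cd3e barcodes. At least 10 UMIs of S100a8, a neutrophil gene, were found in 1.33%, 1.69% and 21.4%, and the monocyte gene Ly6c2 in 20.2%, 3.23% and 28.7%. Cd3e barcodes held Ly6c2 more often than the gate, in 22.05%, 26.7% and 32.1%, so they set no free RNA background for it. With all 3 C1q chains present, 4.35%, 2.25% and 9.44% of gated barcodes held Ly6c2. With no chain present the shares were 26.4%, 18.9% and 52.8%. Cd3e was found in 11.6%, 0.317% and 2.40% of gated barcodes. Median depth was 3484 UMIs per gated barcode at 5 months, 6528 in tumour 1 and 6024 in tumour 2, so shares of barcodes were compared after each barcode was thinned to 2000 UMIs (442, 1890 and 541 barcodes remained). Pairs of these 3 libraries shared 7 to 16 barcode sequences, and 0 to 2 within the gate. Just inside the Tyrobp threshold lay 39, 7 and 10 barcodes with exactly 3 UMIs, and just outside it 28, 36 and 10 with 2.

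The 3 C1q genes were among the higher members in every library and were read from the same barcodes. Levels are given as CPM, the UMIs of a gene in every 1000000 UMIs of the barcodes summed. C1qa had 1627 CPM in the gate at 5 months, 6178 in tumour 1 and 3205 in tumour 2. C1qb had 1051, 3821 and 2292 CPM, and C1qc 888, 3688 and 2175. Tumour 1 was highest and 5 months lowest for each chain. Of all C1q UMIs in the gate, C1qa made up 45.6% (95% exact interval 44.5% to 46.7%) at 5 months, 45.1% in tumour 1 and 41.8% (41.2% to 42.4%) in tumour 2. C1qb made up 29.5%, 27.9% and 29.9%, and C1qc 24.9%, 26.9% and 28.3%. The levels thus differed between libraries by several fold, while the proportions of the 3 chains moved by a few percentage points. These and all other intervals of shares and UMI counts cover counting error only. UMIs of this 3' kit count transcript ends and were not divided by gene length.

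Most gated barcodes held either all 3 chains or none. After thinning, all 3 chains were found in 28.3% of gated barcodes at 5 months (24.1% to 32.7%), in 90.8% in tumour 1 (89.4% to 92.1%) and in 49.9% in tumour 2 (45.6% to 54.2%). No chain was found in 67.6%, 4.34% and 39.6%. Barcodes with 1 or 2 chains were few: 18 of 442, 92 of 1890 and 57 of 541. Without thinning, all 3 chains were found in 26.3%, 93.9% and 52.9%. The summed C1q level per barcode had quartiles of 110 and 184 UMIs per 10000 in tumour 1, whereas at 5 months the median barcode had 0 and 17.0% of barcodes lay above 100.

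**Figure D1:**
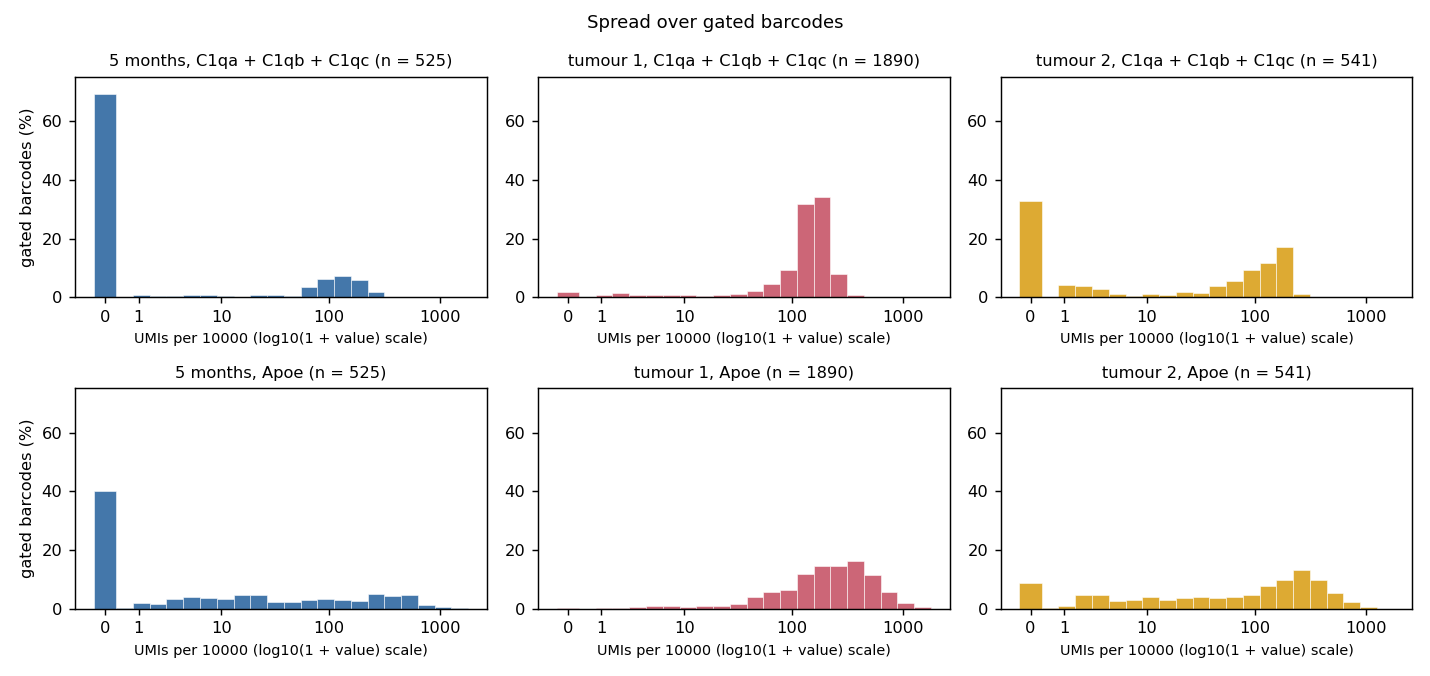
Histograms of the summed C1q level (top) and of Apoe (bottom) per gated barcode, in UMIs per 10000 on a log10(1 + value) axis, with the percentage of gated barcodes on the vertical axis, for the 525, 1890 and 541 gated barcodes of each library. The C1q level was 0 in 69.1% of barcodes at 5 months, 1.96% in tumour 1 and 32.9% in tumour 2. It was over 100 UMIs per 10000 in 17.0%, 78.5% and 34.6%. At 10 to 100 lay 9.90%, 14.8% and 19.6% of barcodes for C1q, and 20.6%, 17.8% and 23.7% for Apoe.

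Apoe was the highest of the 10 genes in every library. It had 8639 CPM in the gate at 5 months, 25905 in tumour 1 and 17291 in tumour 2. A UMI of Apoe was found in 59.8%, 99.9% and 91.1% of gated barcodes. In tumour 1 its spread over barcodes was wider than that of C1q: the 10th and 90th percentiles were 51.9 and 591 UMIs per 10000, against 42.3 and 218 for the C1q sum. In tumour 2 the coefficient of variation over barcodes was 1.15 for Apoe and 1.18 for C1qa. Trem2 was lower, at 111, 375 and 274 CPM, and after thinning it was found in 16.5%, 48.5% and 33.6% of barcodes.

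Mrc1 and Pf4 were read in a minority of gated barcodes. Mrc1 stood at 35.5 CPM in the 5 months gate, 81.5 in tumour 1 and 52.5 in tumour 2, and was found in 5.66%, 12.8% and 7.76% of thinned barcodes. Pf4 had 63.6, 286 and 232 CPM and was found in 4.98%, 24.8% and 17.6% of thinned barcodes. Pf4 was concentrated in few barcodes: the 10% of gated barcodes with the most held 65.0% of its UMIs in tumour 1 and 72.8% in tumour 2, against 21.2% and 37.5% for C1qa. The largest Pf4 count in a barcode was 119 UMIs in tumour 1, 56 in tumour 2 and 13 at 5 months.

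Pf4 is also a platelet gene, so platelet genes were read in the same barcodes. In the 40 gated barcodes with Pf4 at 5 months, Ppbp, Gp9, Itga2b and Gp1bb were all at 0. In the 876 such barcodes of tumour 1, Gp9 and Gp1bb were at 0, Itga2b was at 0.306 and Ppbp at 5.06 CPM, beside 594 for Pf4. In the 168 of tumour 2, Gp9, Itga2b and Gp1bb were at 0 and Ppbp at 4.98, beside 661 for Pf4. C1qa was found in 92.5%, 98.4% and 94.0% of the barcodes with Pf4, beside 29.1%, 96.7% and 59.5% of the whole gate. The chemokine gene Ccl7 had 928 CPM in the barcodes with Pf4 and 47.5 in those without at 5 months, 202 and 135 in tumour 1, and 796 and 275 in tumour 2.

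Cd163, Folr2 and Lyve1 were rare. Cd163 had 2 UMIs in the gate at 5 months, 43 in tumour 1 and 1 in tumour 2. Lyve1 had 0, 60 and 3 UMIs, and the 0 of 525 barcodes at 5 months allows a share of up to 0.571% of barcodes with a UMI (3 barcodes). Folr2 had 7 UMIs in 4 barcodes at 5 months, 757 in 318 barcodes (16.8%) in tumour 1 and 23 in 14 barcodes (2.59%) in tumour 2. Tumour 1 held most of the UMIs of these 3 genes, and also the most gated barcodes. As a level, Cd163 had 0.921 CPM (0.112 to 3.33) at 5 months and 3.18 (2.30 to 4.28) in tumour 1, with overlapping intervals. It had 0.292 CPM in tumour 2. Lyve1 had 4.43 CPM (3.38 to 5.70) in tumour 1 and 0.875 (0.180 to 2.56) in tumour 2. For Folr2, tumour 2 was nearer to 5 months, at 6.71 and 3.22 CPM against 55.9 in tumour 1. At 2000 UMIs per barcode, Folr2 was still found in 7.94% of barcodes in tumour 1, 0.924% in tumour 2 and 0.452% at 5 months.

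Free RNA in the droplets can put macrophage transcripts into other cells, so the 10 genes were read in barcodes with Cd3e, a T cell gene that macrophages lack. After barcodes in the gate or with Epcam were left out, 1288 Cd3e barcodes remained at 5 months, 15 in tumour 1 and 109 in tumour 2, with median depths of 2030.5, 4802 and 3554 UMIs. C1qa had 6.34 CPM there at 5 months, 141 in tumour 1 and 69.6 in tumour 2, which is 0.390%, 2.29% and 2.17% of its level in the gate. Apoe had 82.1, 580 and 264, or 0.951%, 2.24% and 1.53% of the gate. Trem2 had 0.576, 14.1 and 2.05 CPM. For C1q, Apoe and Trem2 the Cd3e barcodes of each library had under 5% of the gate's level. For the rare Folr2, 3 UMIs in Cd3e barcodes at 5 months came to 26.8% of the gate's level (4.48% to 117%).

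The share of barcodes with a UMI was read against the same background. After thinning, Apoe was found in 11.8% of Cd3e barcodes at 5 months, 46.7% in tumour 1 (7 of 15 barcodes) and 33.9% in tumour 2. In the gate it was found in 54.3%, 99.2% and 84.7%. C1qa was found in 0.908%, 26.7% (4 of 15) and 4.59% of Cd3e barcodes, and in 31.0%, 94.3% and 55.5% of the gate. Apoe was thus found in many of the Cd3e barcodes of both tumours, and its share in the gate was higher in each library. Without Cd3e barcodes holding Tyrobp or Lyz2, C1qa had 3.85 in place of 6.34 CPM at 5 months, Pf4 0.350 in place of 5.76 and Mrc1 0 in place of 2.31, in 1120 barcodes. In tumour 2, C1qa then had 9.23 in place of 69.6 CPM in 82 barcodes, which is 0.288% of the gate's level, close to the 0.236% at 5 months. In tumour 1 only 4 such barcodes remained. The 3 chains kept similar proportions in Cd3e barcodes, with C1qa at 37.9% of 58 C1q UMIs at 5 months, 43.5% of 23 in tumour 1 and 41.5% of 82 in tumour 2, and wide intervals (25.5% to 51.6% at 5 months).

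**Figure D2:**
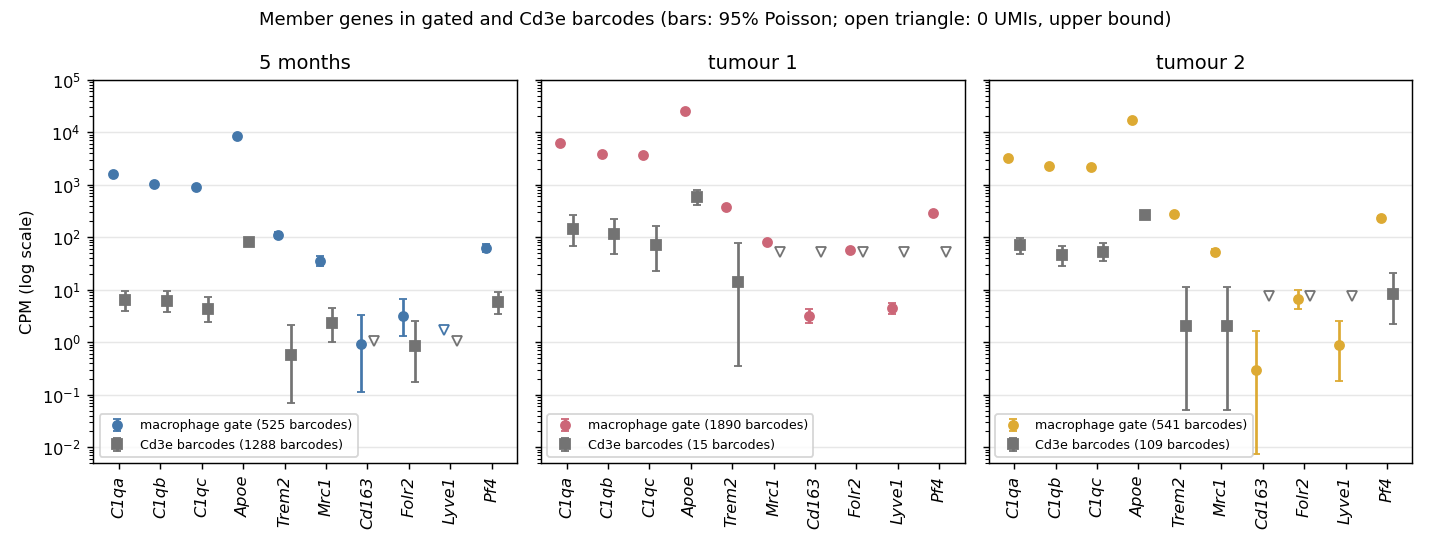
CPM of the 10 genes (horizontal axis) on a log axis, in gated barcodes (coloured circles) and Cd3e barcodes (grey squares) of each library, with 95% Poisson bars; open triangles are upper bounds where 0 UMIs were read. C1q, Apoe and Trem2 lie more than 10-fold above the Cd3e barcodes in each library, and Cd163, Folr2 and Lyve1 lie near them except in tumour 1, where the 15 Cd3e barcodes set only a loose bound.

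The difference between the gate and the Cd3e barcodes was tested on UMI sums per library with edgeR's quasi-likelihood test, with a term for the library. Across 9211 genes, 2287 (24.8%) passed a Benjamini-Hochberg adjusted p of 0.05, and 1505 (16.3%) were higher in the gate. The 7 members that passed the low-count filter were all higher in the gate: C1qa by 6.66 ± 0.43 on the log2 scale (SE), C1qb by 6.47 ± 0.39, C1qc by 6.55 ± 0.41, Apoe by 6.39 ± 0.36, Trem2 by 7.15 ± 0.47, Mrc1 by 4.34 ± 0.46 and Pf4 by 4.30 ± 0.40. Their adjusted p-values in this edgeR fit ran from 2.4e-11 for Apoe to 1.1e-07 for Mrc1. Cd163, Folr2 and Lyve1 did not pass the filter and have no test here. A gene could pass the filter through its gated sums alone. In Cd3e barcodes Mrc1 had 8, 0 and 1 UMIs (5 months, tumour 1, tumour 2), Trem2 2, 1 and 1, and Pf4 20, 0 and 4. A higher level in the gate was thus close to fixed in advance for macrophage genes. The count of 7 is therefore no added support, and the sizes are a description. With every Cd3e barcode kept, those in the gate and with Epcam included, the differences were between 2.23 (Mrc1) and 3.62 (C1qa), and all 7 still passed.

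Apoe was also read in fibroblast barcodes. In those with at least 3 UMIs of Col1a1, a fibroblast gene, and none of Tyrobp or Epcam, Apoe had 4952 CPM at 5 months (14 barcodes), 948 in tumour 1 (81 barcodes) and 1727 in tumour 2 (19 barcodes). At 5 months that was 57.3% of the gate's Apoe level, while the 3 C1q chains, Trem2, Mrc1 and Pf4 were at 0 in those barcodes. In epithelial barcodes, those with Epcam and without Tyrobp, Apoe had 188, 452 and 276 CPM, and Folr2 had 4 UMIs at 5 months (1.30 CPM, or 40.2% of the gate's level, 8.64% to 158%). Barcodes with at least 10 UMIs of S100a8 could lie in the gate, as 32 of 50 did in tumour 1, and in that library they had C1qa at 32.5% of the gate's level, Apoe at 35.4% and Trem2 at 26.3%. In tumour 2 these shares were 0.982%, 2.91% and 4.16%.

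Barcodes with Epcam were outside the gate by its definition, yet some held many C1q UMIs. Of all C1qa UMIs of a library, 83.7% lay in the gate at 5 months, 96.0% in tumour 1 and 85.3% in tumour 2. Epcam barcodes held 536, 3095 and 1739 C1qa UMIs, in 32, 306 and 126 barcodes. Doublets of a macrophage and an epithelial cell were not called, and their part in these counts was not tested.

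Apoe and Trem2 stood higher in gated barcodes with all 3 chains than in those with none in each of the 3 libraries, and Pf4 and Mrc1 did so at 5 months and in tumour 2. In gated barcodes with all 3 chains, Apoe stood at 27146 CPM in the 5 months library, 27299 in tumour 1 and 27118 in tumour 2. In gated barcodes with no chain it had 738, 5222 and 2179. Among the barcodes with all 3 chains the Apoe level of tumour 1 was 1.01-fold and that of tumour 2 1.00-fold the level at 5 months, although over the whole gate tumour 2 stood at 2.00-fold and tumour 1 higher still. Trem2 had 283, 388 and 399 CPM with all 3 chains, and 35.0, 211 and 84.4 with none. Pf4 had 189, 288 and 371 with all 3 chains, and 5.60, 639 and 9.87 with none, where the 639 of tumour 1 came from 9 of 37 barcodes. Mrc1 had 51.5, 83.9 and 75.1 with all 3 chains, and 29.4, 82.0 and 15.3 with none.

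Barcodes with no C1q chain carried other myeloid genes. At 5 months Plac8, a monocyte gene, had 1320 CPM in them and 79.7 in those with all 3 chains, and Csf1r, the receptor that macrophages depend on, had 138 and 556. In tumour 2, S100a8 had 52326 CPM with no chain and 555 with all 3. In tumour 1 the 37 barcodes with no chain had Col1a1 at 1424 CPM, against 86.5. Dendritic cell genes were found in 51.0% of barcodes with no chain and 34.8% of those with all 3 at 5 months. The part of these cells in the levels over the whole gate was not tested.

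**Figure D3:**
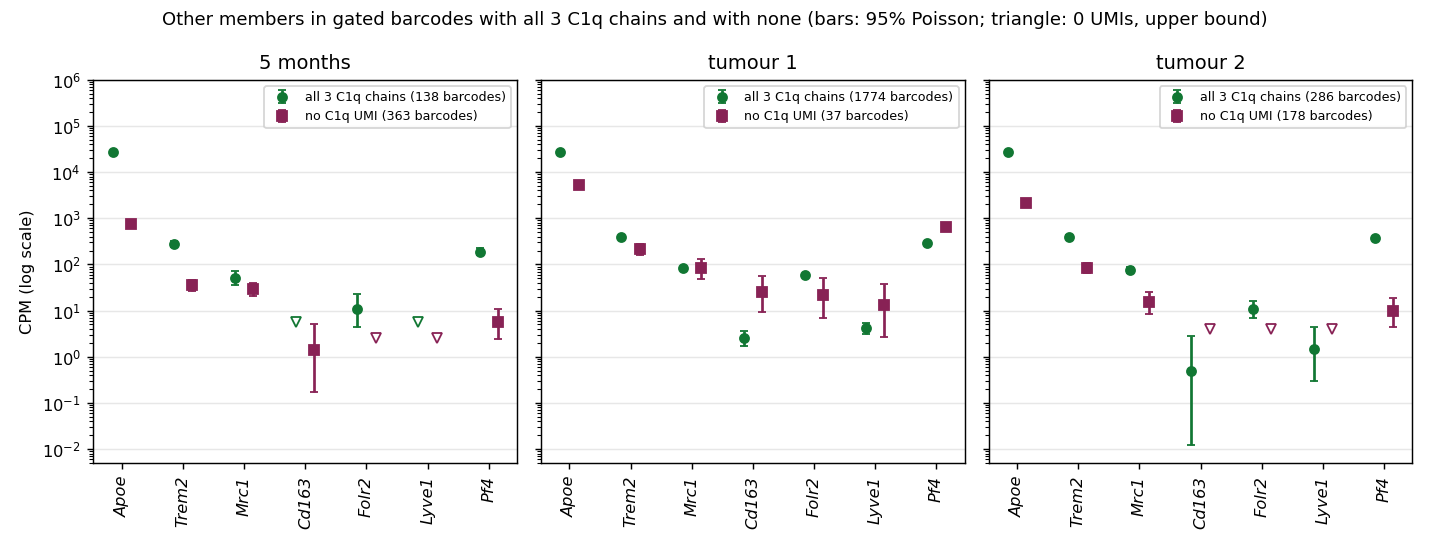
CPM of the 7 members other than C1q on a log axis, in gated barcodes with all 3 C1q chains (circles) and with no C1q UMI (squares) in each library, with 95% Poisson bars and triangles for upper bounds at 0 UMIs. Apoe stands at 27146, 27299 and 27118 in the barcodes with all 3 chains and lies lower in those with none, and Pf4 shows the same order at 5 months and in tumour 2 but not in tumour 1.

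Levels per barcode were correlated within each library, over barcodes thinned to 2000 UMIs (442, 1890 and 541), as a description. C1qa and C1qb had a Pearson r of 0.97 at 5 months, 0.83 in tumour 1 and 0.93 in tumour 2 on log values. Apoe and the C1q sum had an r of 0.81, 0.57 and 0.80, and Trem2 and the C1q sum 0.40, 0.11 and 0.41. Mrc1 and the C1q sum had 0.02, 0.02 and 0.18, and values this low in such sparse counts are read as no finding. Barcodes of a library share its free RNA.

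Co-detection was counted without thinning except where stated. Gated barcodes were shallower at 5 months, so unthinned shares are not to be compared between libraries. At 5 months, 96.7% of the 153 barcodes with C1qa also held Apoe, 49.0% Trem2, 24.2% Pf4 and 12.4% Mrc1. In tumour 1, of 1828 barcodes with C1qa, 81.1% held Trem2, 47.2% Pf4 and 30.4% Mrc1, and in tumour 2, of 322, 78.6%, 49.1% and 30.1%. Read the other way, C1qa was found in 40.4% of the 47 barcodes with Mrc1 at 5 months, 98.2% of 565 in tumour 1 and 89.8% of 108 in tumour 2. Over the whole gate C1qa was found in 29.1%, 96.7% and 59.5% of barcodes, so the Mrc1 barcodes held it at least as often as the gate in each library. Clec10a, a lectin of macrophages and dendritic cells, was found in 48.9% of the Mrc1 barcodes at 5 months, against 5.86% of gated barcodes without Mrc1.

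**Figure D4:**
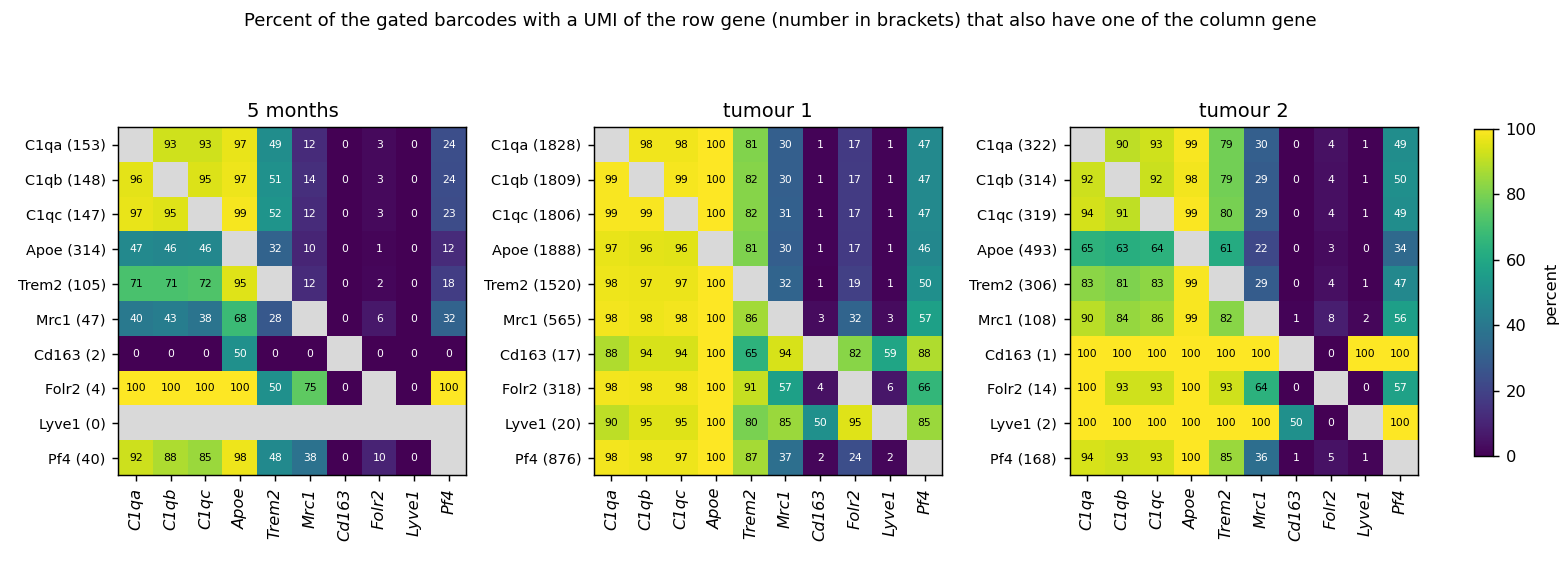
Percentage of the gated barcodes with a UMI of the row gene (number in brackets) that also hold a UMI of the column gene, without thinning, in each library; grey cells are the diagonal or have no barcode. Most barcodes of each C1q row also hold the other chains and Apoe in all 3 libraries, and in tumour 1 most barcodes of the Lyve1 row (20 barcodes) also hold Mrc1, Folr2 and Pf4.

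In tumour 1, Lyve1, Cd163, Folr2 and Mrc1 met in a small set of barcodes. Of the 20 gated barcodes with Lyve1, 19 held Folr2, 17 Mrc1, 10 Cd163 and 17 Pf4, and 10 held all of Lyve1, Cd163, Folr2 and Mrc1. All 3 C1q chains were found in 18 of the 20. At least 2 UMIs of Lyve1 were found in 9 of the 20. Over the whole gate of tumour 1, 10 barcodes (0.529%, 0.254% to 0.971%) held all 4 genes and 9 held 3 of them, while 1 barcode of tumour 2 and 0 of 525 at 5 months held 3. Cdh5, which marks endothelial cells, was in 0 of the 20 barcodes. A further 23 Lyve1 UMIs lay outside the gate in 2 barcodes with the endothelial genes Pecam1 and Cdh5.

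Compared with the other 1870 gated barcodes of tumour 1, the 20 Lyve1 barcodes had Cd163 at 259 CPM against 0.745, Folr2 at 676 against 50.02, Mrc1 at 739 against 75.3 and Pf4 at 1675 against 273. Apoe, at 23684 against 25926, and C1qa, at 4804 against 6191, were slightly lower. A list of 17 further genes of resident or perivascular macrophages was read in the same barcodes, and for 14 the counting interval lay wholly above that of the other barcodes. The chemokine gene Ccl8 had 14688 against 334 CPM, F13a1 (a coagulation factor subunit) 1321 against 33.2, Cbr2 605 against 6.56, Fcna (a ficolin) 550 against 4.398 and Vsig4 (a complement receptor) 102 against 0.671. Of the 20 barcodes, F13a1 was found in 19, Ccl8 and Fcna in 16 each and Cbr2 in 12. Vsig4 rested on 13 UMIs in 3 barcodes, and Timd4, also among the 14, on 3 UMIs in 3. Siglec1 and Cd36 had lower values, with counting intervals that overlapped. The 20 barcodes are from 1 tumour, so these values describe that library and carry no test.

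**Figure D5:**
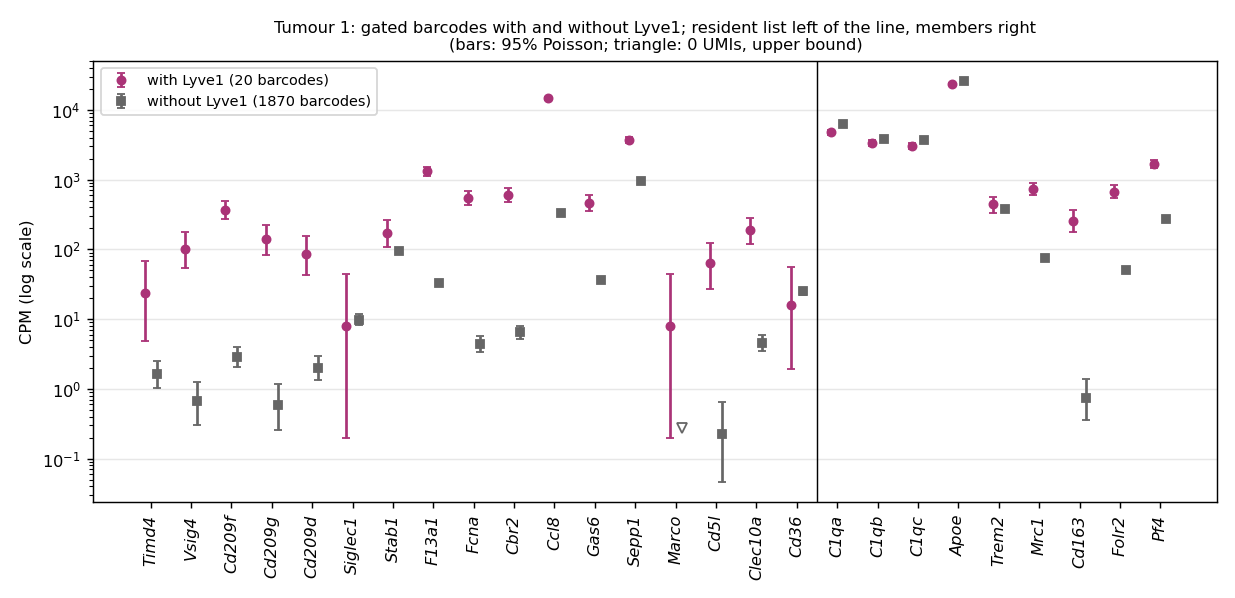
CPM on a log axis in tumour 1, for 20 gated barcodes with Lyve1 (circles) and 1870 without (squares), for 17 genes of the resident macrophage list (left of the line) and the other 9 members (right), with 95% Poisson bars and a triangle for an upper bound at 0 UMIs. Cd163, Folr2, Mrc1 and Pf4 stand higher in the Lyve1 barcodes, C1q and Apoe do not, and 14 of the 17 list genes stand wholly above.

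The tumours were then set against the 5 months library. Tissue, sort and library differ together between the 2 groups. A difference of premalignant tissue from tumour therefore cannot be told apart from how the cells were collected. UMI sums over the gate were compared with edgeR's quasi-likelihood test, with 2 tumours and 1 library at 5 months, so each p rests on the spread between 2 tumours that may or may not come from separate mice. None of 10385 genes passed an adjusted p of 0.05 (0%), and 1036 had an unadjusted p under 0.05. None of the 10 members passed. The log2 difference, tumour over 5 months, was 1.43 ± 0.47 (SE) for C1qa with an adjusted p of 0.437 in edgeR, 1.62 ± 0.43 for C1qc with 0.379, 1.22 ± 0.30 for Apoe with 0.342 and 1.93 ± 0.44 for Pf4 with 0.309. C1qb had 1.44 ± 0.42, Trem2 1.46 ± 0.44, Mrc1 0.82 ± 0.46, Cd163 0.96 ± 1.88 and Folr2 3.19 ± 1.46. Lyve1 had 0 UMIs at 5 months, so its fitted difference is no measure of size. The median over all genes was 0.06.

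The 10 differences pointed to the tumours, in a comparison where 0% of all genes passed the test. Both tumours lay above the 5 months library for 9 genes, all but Cd163, which was lower in tumour 2. Lyve1 is among the 9 because it had 0 UMIs at 5 months. Its upper bound there, 1.70 CPM, lay above the 0.875 CPM of tumour 2 (3 UMIs). Tumour 2 is thus not shown to lie above 5 months for Lyve1. Of the 10385 genes tested, both tumours lay above the 5 months library for 38.8% and on the same side of it for 74.5%. Their size depended on which barcodes stood in the gate. Limited to barcodes with Csf1r, Adgre1 or Fcgr1, the differences were 0.76 for C1qa, 0.93 for C1qc, 0.52 for Apoe and 0.79 for Trem2. Without barcodes holding dendritic cell genes they were 0.83, 1.06, 0.61 and 0.82. In barcodes with all 3 C1q chains Apoe had -0.08 ± 0.16, Trem2 0.39 ± 0.34, Mrc1 0.54 ± 0.40, Folr2 1.64 ± 1.13 and Pf4 0.72 ± 0.38, and none of these passed, among 2 of 9094 genes (0.022%) that did. Those 2, named after their values were seen, were the milk casein genes Csn2 and Csn1s2a, both lower in the tumours. At a gate of at least 10 Tyrobp UMIs, the differences were larger for Pf4, at 3.15 ± 0.48, and Mrc1, at 1.37 ± 0.48, and smaller for C1qa, at 0.87 ± 0.44. Without tumour 1, Folr2 had 0.86 in place of 3.19.

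Related genes from 4 lists were read in the same 2 comparisons. Of 10 complement genes and receptors tested between tumours and 5 months, 0 passed in either direction in edgeR (4 higher and 0 lower had an unadjusted p under 0.05), with a median of 0.96 beside 0.06 for all genes. C5ar1, the receptor of the anaphylatoxin C5a, had 144 CPM, scaled by TMM, at 5 months, 209 in tumour 1 and 433 in tumour 2, and C3ar1 had 76.7, 171 and 262, while Cfp, properdin, had 171, 125 and 156. Of 14 genes of the resident list 0 passed (3 higher and 4 lower in the tumours had an unadjusted p under 0.05), with a median of 1.41, or 0.95 with the 2 genes at 0 UMIs at 5 months (Cd209f and Vsig4) set to their bound against a floor of 3 UMIs in that library. The 4 lower genes, named after their values were seen, were, in the order 5 months, tumour 1 and tumour 2, Timd4, a receptor for dying cells, at 56.9, 1.78 and 3.49 CPM scaled by TMM, the lectin gene Cd209d at 64.1, 2.71 and 0, Clec10a at 33.3, 6.13 and 6.41, and the lipid receptor gene Cd36 at 130.2, 24.1 and 7.86. Sepp1, the plasma selenium carrier, had 501, 937 and 747, Ccl8 56.4, 453 and 68.1, and Stab1, a scavenger receptor, 30.4, 90.8 and 83.3.

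Of 15 genes of lipid handling and the TREM2 programme 0 passed (4 higher and 1 lower had an unadjusted p under 0.05), with a median of 0.87. Spp1, osteopontin, had 144, 4576 and 929, Lgals3, a galectin, 1731, 1838 and 2669, and Ctsb, a lysosomal protease, 1264, 1916 and 1769. Of 10 phagocytic and scavenger receptors 0 passed (5 higher and 1 lower had an unadjusted p under 0.05), with a median of 1.68. Fcgr3, an Fc receptor, had 162, 698 and 749, Fcer1g, its signalling chain, 1502, 2161 and 2370, and Axl, a receptor for dying cells, 117, 246 and 200. Against Cd3e barcodes, 9 of 9, 8 of 9, 14 of 14 and 8 of 8 tested genes of these lists passed as higher in the gate. Of all 9211 genes tested there, 16.3% did. List genes could enter this test through the gate alone, so these counts were close to fixed in advance.

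Genes were ranked by how closely they followed the C1q sum over thinned barcodes, using the lowest Pearson r of the 3 libraries, among 1591 genes found in at least 10% of gated barcodes of each. Apoe ranked 1st with a lowest r of 0.57. Those that followed included Ctss and Lgmn (lysosomal proteases) with 0.47 and 0.41, Cd74 (the MHC class II invariant chain) with 0.34, Ms4a7 with 0.32, Aif1 with 0.32, Itm2b with 0.32 and Sepp1 with 0.32. For each of those named tumour 1 gave the lowest value. S100a6 was the most opposed, with -0.45 at 5 months, -0.49 in tumour 1 and -0.75 in tumour 2.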

How the data were processed

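RNA of single cells was measured in 4 libraries. Per the labels' protocols, the kit was 10x Chromium 3' v2. The authors deposited UMI counts per gene and barcode, made with Cell Ranger on mm10 (GRCm38) per the submitters' processing notes; the Cell Ranger version is not given in the sources used here. Libraries held 6722044 UMIs (2 weeks), 15060411 (5 months), 23736366 (tumour 1) and 13061942 (tumour 2). A further 694 genes listed for 5 months alone, with 4.59% of its UMIs, were left out. All deposited barcodes were used, and no doublet caller was run. The gate took at least 3 UMIs of Tyrobp, 1 of Lyz2 and 0 of Epcam. Levels are UMIs per 1000000 UMIs (CPM) of the summed barcodes, with exact Poisson intervals, and shares have exact Clopper-Pearson intervals at 95%. For shares and correlations barcodes were thinned to 2000 UMIs (seed 1) and shallower ones left out. Correlations used the log of 1 plus counts per 10000.

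UMI sums per library were fitted in edgeR 4.0.16 (R 4.3.3; TMM scaling, quasi-likelihood test, filterByExpr, Benjamini-Hochberg adjustment over all genes), with DESeq2 1.42.0 as an alternative. The script was tested on simulated data. Other alternatives changed the gate, depth, filter, scaling and libraries; the pool of barcodes with all 3 C1q chains and that without dendritic cell genes were added after seeing the data. All 10 members are named, with the 3 genes of highest mean level of each list where none passed and the 8 genes most like C1q, of which 1 is not reported here. Genes of the Lyve1, Pf4 and C1q paragraphs beyond these were chosen after their values were seen. The members and lists were chosen with earlier results of these data known.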

Additional observations from a re-analysis of the deposited data

Results flagged for a closer look

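The 2 weeks library, sorted for YFP+ epithelial cells and left out of the comparisons, held more than 3 UMIs of 5 of the 10 genes. It had 41 UMIs of C1qa, 18 of C1qb and 13 of C1qc, of which 37, 15 and 12 lay in 1 of its 2 gated barcodes. Apoe had 1579 UMIs in 264 barcodes, 195 of them with Epcam.

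Folr2 had 55 UMIs in 51 barcodes, of which 50 held Epcam and 0 held Tyrobp. Prlr, the prolactin receptor, was found in 94.1% of the Folr2 barcodes and in 67.7% of all barcodes of that library, at median depths of 4998 and 3876 UMIs. Lyve1, Cd163 and Pf4 were at 0 there.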

How the results depend on the processing

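Between tumours and 5 months, 106 of 107 alternative values of the members kept their direction, with adjusted p-values from 0.00280 to 1.00. The exception was Apoe at -0.080 in barcodes with all 3 C1q chains. Lyve1, with 8 of the 107 values, had 0 UMIs in the 5 months gate, so its direction was fixed in advance. In place of 0 members, 1 passed with DESeq2 (Pf4, 1.92, adjusted p = 0.0397) and 6 without the low-count filter (the C1q chains, Apoe, Folr2 and Pf4); the cause was not tested. All genes called numbered 104 with DESeq2, 593 without the filter and 2 in barcodes with all 3 chains, in place of 0. Leaving out a tumour left no spread to test against. No paired analysis was possible because the labels link neither tumour to the single 5 months library. For the gate against Cd3e barcodes, the library served as the block; without the replicate block 1276 genes passed in place of 2287, and leaving out a library gave 1428 (without 5 months) to 2444 (without tumour 1), with 1449 without tumour 2. The 7 members passed under all 8 alternatives, which is no added support because the gate alone could carry them through the filter.

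The share with all 3 C1q chains, 28.3%, 90.8% and 49.9%, depended on depth and gate. Thinned to 1000 UMIs it was 22.5%, 85.0% and 42.7%, and at 3000 UMIs 55.9% in tumour 2. With Csf1r, Adgre1 or Fcgr1 it was 45.7%, 93.0% and 63.5%. At Tyrobp of at least 10 it was 40.3% at 5 months and 93.0% in tumour 1, and at 1 or more 86.5% in tumour 1. It was 38.2% at 5 months without dendritic cell genes and 69.1% in tumour 2 without lymphocyte or neutrophil genes. Tumour 1 stayed highest and 5 months lowest at each setting with all 3 values given here. Depth limits the rare members: Cd163 was read in 17 of 1890 barcodes of tumour 1, and in 7 after thinning to 2000 UMIs.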
